A study of Homo sapiens with 2 samples.

Results

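The AP-1 transcription factors are described here through 9 genes, JUN, JUNB, JUND, FOS, FOSB, FOSL1, FOSL2, ATF3 and BATF3, taken by symbol from a deposited table of 40205 gene symbols. All 9 were found. The cells were RKO, an established human colorectal cancer line, and were harvested on day 2 after they had been transfected. The control library came from cells given a control siRNA, and the knockdown library from cells given siRNA to hnRNPK, a poly(C)-binding nuclear protein that acts on transcripts. With 1 library a group there is no replicate check of any difference below, no test between the conditions could be run and no p-value is given. The genotype label calls the knockdown a knockout, and the names used here follow the titles.

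AP-1 is a dimer of basic leucine zipper proteins that binds DNA at the sequence TGACTCA and related words. JUN proteins pair with each other or with FOS proteins, whereas FOS proteins need a JUN or other zipper partner. ATF3 and BATF3 join the same network and often act as repressors. Many of these genes are immediate early genes, whose short-lived transcripts follow growth factor, stress and mitogen-activated protein kinase signals, and FOSL1 is a known marker of strong RAS to ERK signalling in carcinoma cells.

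AP-1 genes are known to be regulated in part by their own products, so 1 stretch per promoter is shown as context for the levels below. It holds the longest word found there, an AP-1 type word, the cyclic AMP response element or a part of that element. The stretches come from RefSeq on build GRCh38.p14, whereas the submitters' processing notes name hg19 for the reads. Each line runs 5′ to 3′ on the strand of the gene, with the word in capitals and 11 bases on each side. The searched window runs from 250 bases before to 50 bases after the start of a gene, on both strands, and 7 of the 9 genes had an entry, ATF3 with more than 1. FOSL1 and BATF3 are named only.
JUN, word 67 bases before the start, chr1:58784096-58784125, minus strand: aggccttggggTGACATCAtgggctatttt
ATF3, word 123 bases before the start, chr1:212565273-212565302, plus strand: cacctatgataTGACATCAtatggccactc
JUND, word 200 bases before the start, chr19:18281804-18281833, minus strand: ggccgcccccaTGACGTCAacccacaaggc
FOSL2, word 4 bases after the start, chr2:28392851-28392879, plus strand: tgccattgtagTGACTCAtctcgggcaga
FOS, word 64 bases before the start, chr14:75278753-75278779, plus strand: ggttgagcccgTGACGtttacactcat
JUNB, word 137 bases before the start, chr19:12791338-12791364, plus strand: cttcctgacagTGACGcgagccgcctc
FOSB, word 60 bases before the start, chr19:45467925-45467951, plus strand: caaggggcgggTGACGtaagcaggggg

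JUN and ATF3 shared the word TGACATCA, the variant through which JUN is known to act on its own gene, and 2.61% of all 35116 promoter windows held it. The word TGACGTCA, the cyclic AMP response element, was found in JUND alone of the 7 genes and in 1.85% of all windows. FOSL2 alone held TGACTCA, which 4.95% of all windows held. The shorter word TGACG, which is only a part of TGACGTCA, was in 6 of the 7 genes and in 24.6% of all windows. FOS, JUNB and FOSB held no other searched word. JUN, JUND and FOSL2 held it outside the stretches shown. A match is a stretch of letters and not a measured binding site. JUN and ATF3, which carry the same word, had ratios on opposite sides of 1, as given below. Whether the word bears on either ratio was not tested.

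The files give FPKM, which divides fragments by transcript length and by sequencing depth, so levels can be compared between genes. Whole reads behind the values could be worked out, and the smallest totals they allow are 25729856 in the control library and 28550823 in the knockdown library. Intervals in brackets are exact 95% counting intervals from these reads. They leave out variation between cultures, and sequenced copies of one molecule would make them too narrow. HNRNPK itself, which the siRNA targets, had 338.0 FPKM in the control and 61.5 FPKM in the knockdown library, for a ratio of 0.182 (0.174 to 0.190). The cells expressed the epithelial genes KRT18 (62.6 and 74.8 FPKM), EPCAM (19.0 and 29.1 FPKM) and KRT8 (6.63 and 5.03 FPKM), whereas KRT19 and CDH1 were listed at 0 in both libraries. Of 5 intestinal markers CDX2 was above 1 FPKM, at 5.01 and 4.47 FPKM, and CDX1, VIL1 and LGALS4 were listed at 0. All 4 blood and all 3 endothelial markers were listed at 0, and no fibroblast marker exceeded 0.0355 FPKM.

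JUN and FOSL1 made up most of the AP-1 transcripts in both libraries. JUN stood at 286.0 FPKM in the control and 222.7 FPKM in the knockdown library. FOSL1, which encodes Fra-1, stood at 122.1 and 83.9 FPKM. Together they held 90.2% of the summed FPKM of the 9 genes in the control library and 88.8% in the knockdown library. JUN lay above 98.3% of the 11454 genes whose mean FPKM was 1 or more in the control library, and FOSL1 above 95.6%.

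The other genes were much lower, and FOS itself was close to the bottom. In the control library the order after JUN and FOSL1 was JUND, BATF3, JUNB, ATF3, FOSB, FOS and FOSL2, from 16.9 FPKM for JUND down to 0.837 FPKM for FOSL2. FOSL1 was 7.21-fold above JUND, the next in the order, and JUN was 2.34-fold above FOSL1. The counting intervals of JUNB and ATF3 overlapped, as did those of FOS and FOSL2, so the order within these pairs is not resolved. In the knockdown library the order was the same apart from FOS and FOSL2, whose intervals again overlapped, and there BATF3 also overlapped with JUNB.

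**Figure D1:**
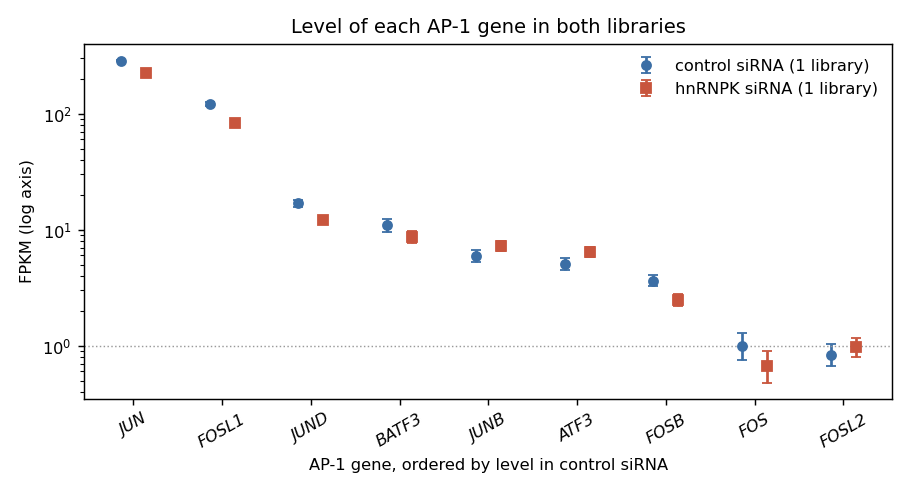
FPKM of the 9 AP-1 genes on a log axis, with 1 point per library (circles control siRNA, squares hnRNPK siRNA, the knockdown) and bars for the 95% counting interval. JUN and FOSL1 lie far above the rest, from 83.9 to 286.0 FPKM, and FOS and FOSL2 lie below the dotted line at 1 FPKM in both libraries.

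Within each family 1 gene dominated, and its share hardly differed between the libraries. JUN held 92.6% of the summed FPKM of JUN, JUNB and JUND in the control library and 92.0% in the knockdown library. JUND, the member often linked to resting cells, held 5.48% and 5.04%, and JUNB 1.92% and 3.002%. Among the 4 FOS genes FOSL1 held 95.7% and 95.3%, followed by FOSB with 2.86% and 2.81%. The summed FPKM of the JUN genes was 2.42 times that of the FOS genes in the control library and 2.75 times in the knockdown library.

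The most abundant AP-1 transcripts were lower in the knockdown library, by less than 2-fold. For JUN, 24457 reads in the control library and 21132 in the knockdown library gave a ratio of 0.779 (0.764 to 0.793), or 22.1% lower. FOSL1 had a ratio of 0.687 (0.648 to 0.728), or 31.3% lower. Its smallest fitting length, 834 bases, may be a fraction of the true one, and at 2 times the reads its interval would be 0.659 to 0.716. The summed FPKM of the 9 genes went from 452.4 in the control library to 345.3 in the knockdown library. JUN and FOSL1 accounted for 94.8% of that difference, a share near the 90.2% of the sum that they held in the control library.

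Of the less abundant activators, JUND and FOSB were lower as well. JUND was at 16.9 FPKM in the control and 12.2 FPKM in the knockdown library, from 815 and 652 reads, a ratio of 0.721 (0.649 to 0.8001). FOSB was at 3.64 and 2.48 FPKM, from 354 and 267 reads, a ratio of 0.680 (0.578 to 0.799). FOS, the founding member of its family, was at 0.991 and 0.665 FPKM from only 55 and 41 reads. Its ratio of 0.672 (0.437 to 1.03) was as low as that of FOSB, but a difference was not detectable at this depth with the deposited scaling.

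JUNB and ATF3 lay on the other side. JUNB, a weaker activator than JUN, was at 5.93 FPKM in the control and 7.27 FPKM in the knockdown library, from 277 and 377 reads, a ratio of 1.23 (1.05 to 1.44). JUNB shares 259 exonic bases with HOOK2, a gene on the opposite strand in GENCODE release 29 that was at 3.59 and 2.16 FPKM. Whether counting used strand is unknown from the sources here, so reads of the 2 genes cannot be told apart over those bases. ATF3, a stress-induced member that can repress its targets, was at 5.06 and 6.41 FPKM, from 311 and 437 reads, a ratio of 1.27 (1.09 to 1.47). None of the other 8 AP-1 genes shared exonic bases with another gene in that annotation.

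BATF3 lay on the lower side, and the counting interval of FOSL2 held 1. BATF3, best known from dendritic cells and lacking an activation domain, was at 10.9 FPKM in the control and 8.68 FPKM in the knockdown library, from 275 and 243 reads, a ratio of 0.796 (0.667 to 0.950). FOSL2, which encodes Fra-2, was at 0.837 and 0.974 FPKM from 86 and 111 reads. Its ratio was 1.16 (0.870 to 1.56), so no difference was detectable.

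**Figure D2:**
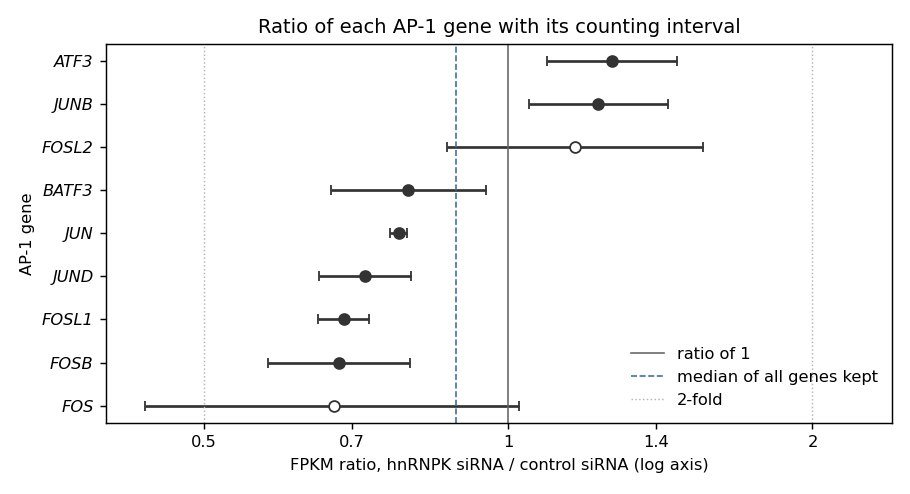
FPKM ratio of knockdown to control library for each AP-1 gene on a log axis, with 95% counting intervals. Open circles are FOS and FOSL2, with a mean below 1 FPKM. The dashed line is the median ratio of all genes kept, 0.888. ATF3 and JUNB lie above 1, and JUN, JUND, FOSL1, FOSB and BATF3 below it, all inside the dotted lines at 2-fold.

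Among the 7 AP-1 genes whose mean FPKM was 1 or more, none reached 2-fold in either direction on the log2(FPKM + 1) scale, which understates differences of low genes. Over all 11454 genes kept by the same limit, 0.777% were 2-fold or more above (89 genes) and 3.55% as far below (407 genes), which became 146 and 262 genes once the median was centred. With shares this small, 0 of 7 is near the background. By the counting interval, 5 of the 7 lay below a ratio of 1 and 2 above it, in a table where 48.4% of all genes lay below and 20.8% above. The intervals thus mark precision at this depth, which most expressed genes reach, and say nothing of variation between cultures.

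The whole table was shifted to lower ratios, and the AP-1 genes have to be read against that shift. The median log2 ratio was −0.36 over the 7 AP-1 genes and −0.15 over all genes kept, a distance of −0.21. JUN, JUND, FOSB, FOSL1 and BATF3 were below the median of all genes and JUNB and ATF3 above it. FOSL1, at −0.54, had 17.0% of all genes below it, and JUN, at −0.36, had 28.96% below it. ATF3, at 0.29, had 86.6% below it, and JUNB, at 0.26, had 84.6%.

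**Figure D3:**
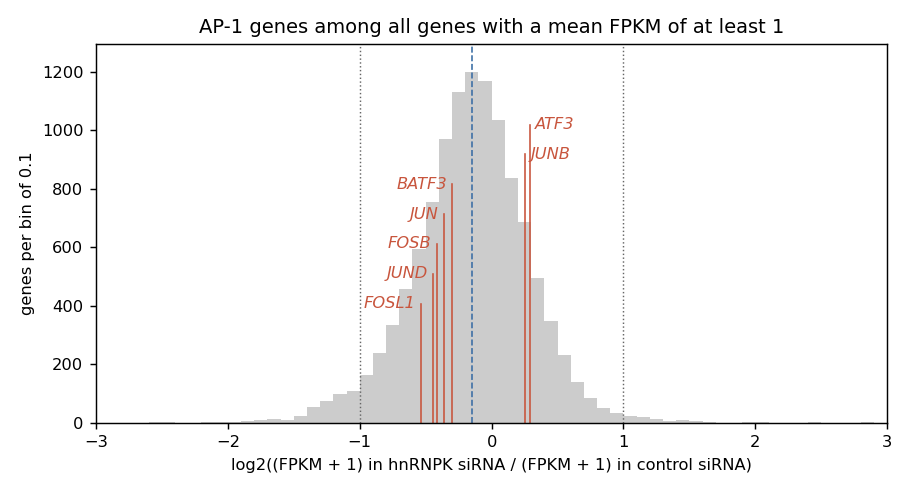
Number of genes per bin of log2 ratio (FPKM + 1, knockdown over control) for the 11454 genes kept, with the 7 AP-1 genes above 1 FPKM marked by lines of arbitrary height. The dashed line is the median of all genes, −0.15, and the dotted lines are 2-fold. FOSL1, JUND, FOSB, JUN and BATF3 lie to the left of the median and JUNB and ATF3 to its right, all within the body of the distribution.

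No scaling turned the direction of any of the 9 ratios. The counting intervals of some came to hold 1, and that of FOS came to exclude it. JUN, JUND, FOSB and FOSL1 stayed wholly below 1 and ATF3 wholly above 1 as deposited, after centring, with trimmed mean (TMM) factors and with equal totals without small RNAs. For JUN these ratios ran from 0.723 with equal totals to 0.881 with TMM factors, and for FOSL1 from 0.638 to 0.777. BATF3 came to 0.901 (0.755 to 1.07) with TMM factors and 0.897 (0.751 to 1.07) after centring. JUNB came to 1.14 (0.973 to 1.33) with equal totals. FOS, whose interval held 1 in the other settings, came to 0.624 (0.406 to 0.952) with equal totals, wholly below 1.

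Genes around AP-1 were followed in 7 lists of partners, kinases, phosphatases, inducers and targets, which hold 97 genes whose mean FPKM was 1 or more. In all, 1 was past 2-fold upwards and 3 downwards, or 1.03% and 3.09%, near the shares of all genes. Each list is described by its counts and by its median log2 ratio beside that of all genes, −0.15. The distance of the list medians from that value ran from −0.18 for the kinase cascades to 0.34 for the textbook targets.

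The dimer partners outside the 9 genes held no member past 2-fold. Of 20 listed basic leucine zipper genes 14 were kept, 9 above the median of all genes and 5 below it (median 0.06). BACH1, a repressor that pairs with small MAF proteins, was at 5.74 FPKM in the control and 10.5 FPKM in the knockdown library, a ratio of 1.83 (1.69 to 1.99). CEBPB, which regulates inflammatory and differentiation genes, was at 27.4 and 19.2 FPKM, with a ratio of 0.701 (0.627 to 0.782). ATF4, the main factor of the integrated stress response, was the most abundant of these partners at 214.0 and 248.8 FPKM. JDP2, a repressor of AP-1, was at 9.58 and 13.6 FPKM. The last 2 were chosen after their values had been seen.

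The kinase cascades that induce and phosphorylate AP-1 lay mostly below the median of all genes. Of 18 kept genes of the JNK, ERK and p38 pathways 12 were below that median (list median −0.32). On the FPKM + 1 scale 2 were at least 2-fold lower and none 2-fold higher. The shares of all genes kept were 3.55% and 0.777%. MAP2K2, the ERK kinase MEK2, was at 29.1 FPKM in the control and 12.6 FPKM in the knockdown library, 2.31-fold lower (2.10 to 2.54). MAP3K7, or TAK1, which feeds JNK, p38 and NF-κB, was at 12.2 and 5.32 FPKM, 2.30-fold lower (2.11 to 2.51). On plain FPKM 2 more were over 2-fold lower, MAPK11, a p38 kinase, at 3.597 and 1.599 FPKM and RPS6KA3, given next, both chosen after their values had been seen. How many of all genes were past 2-fold on plain FPKM was not counted, so MAPK11 and RPS6KA3 do not add to the count of the list. On the FPKM + 1 scale 3 genes of the list were past 2-fold with equal totals, and 4 when 0.1 FPKM was added in place of 1. Over all 11454 genes kept, 535 and 754 were as far lower in these settings. None was past it once the median was centred, TMM factors were used or 5 FPKM was added.

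Single kinases of this list pointed both ways. MAPK8, or JNK1, was at 11.6 and 14.4 FPKM, with a ratio of 1.25, while MAPK9, or JNK2, was at 30.2 and 16.5 FPKM, with a ratio of 0.546. RPS6KA3, the ERK-activated kinase RSK2, was at 11.2 and 5.29 FPKM, with a ratio of 0.470. These 3 genes were chosen after their values had been seen. The MAPK phosphatases, which switch the kinases off, had 5 of 8 kept genes on the lower side of all genes, with 0 past 2-fold (median −0.22). DUSP14 was at 12.04 and 7.30 FPKM, with a ratio of 0.606 (0.525 to 0.7001), and DUSP1, itself an immediate early gene, at 1.02 and 1.19 FPKM, with a ratio of 1.17 (0.808 to 1.71).

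Factors that switch on FOS and related genes showed no member past 2-fold. Of the 11 genes in the list of SRF and its cofactors 8 were above the median of all genes (median 0.02). MEF2D was at 3.92 FPKM in the control and 7.20 FPKM in the knockdown library, a ratio of 1.84 (1.55 to 2.19), and ELK4, a ternary complex factor, at 4.54 and 3.65 FPKM, with a ratio of 0.805 (0.743 to 0.872). The other immediate early genes also lay mostly above the median of all genes, 9 of 13, with 0 past 2-fold (median 0.10). IER3 was at 57.7 and 101 FPKM, with a ratio of 1.75 (1.65 to 1.85). EGR1, induced by the same signals as FOS, was at 12.5 and 7.54 FPKM, with a ratio of 0.604 (0.547 to 0.667).

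Textbook AP-1 targets lay mostly above the median of all genes. Of 18 kept targets 12 were above the median of all genes and 6 below it (median 0.20). On the FPKM + 1 scale 1 was past 2-fold in each direction. CCND1, which encodes cyclin D1, was at 53.9 FPKM in the control and 16.4 FPKM in the knockdown library, 3.29-fold lower (3.12 to 3.46). IL8, the chemokine also called CXCL8 and a target of NF-κB as well, was at 2.48 and 6.64 FPKM from 109 and 323 reads, a ratio of 2.67 (2.14 to 3.35). IL8 was not past 2-fold with a pseudocount of 5 FPKM.

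Several protease genes of that list were at ratios above 1. Values in the control and knockdown libraries were 3.82 and 5.33 FPKM for MMP1, 0.707 and 2.21 FPKM for MMP10, and 7.53 and 10.6 FPKM for PLAU, the urokinase gene. Its receptor PLAUR was at 29.4 and 36.9 FPKM. On plain FPKM MMP10 had a ratio of 3.13 (2.09 to 4.79), from 32 and 111 reads. MMP10 was not past 2-fold on the FPKM + 1 scale at the deposited scaling. CD44, EZR and DNMT1 lay on the lower side, with ratios of 0.699 (0.671 to 0.728), 0.727 (0.706 to 0.748) and 0.641 (0.616 to 0.668). These 7 genes were chosen after their values had been seen, and several are also regulated by other factors.

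Regulators of AP-1 mRNA and protein turnover lay with the other genes, 7 of 15 lying over the median of all genes and 0 past 2-fold (median −0.15). ITCH, a ubiquitin ligase for JUN proteins, was at 17.5 and 9.79 FPKM, with a ratio of 0.560 (0.528 to 0.593). DET1, part of another ubiquitin ligase for JUN, was at 1.98 and 1.07 FPKM, with a plain FPKM ratio of 0.543 (0.410 to 0.716) below that of ITCH, which was lowest on the FPKM + 1 scale. ZFP36, which speeds decay of AU-rich messages such as that of FOS, was at 2.97 and 2.90 FPKM. The last 2 were chosen after their values had been seen.

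**Figure D4:**
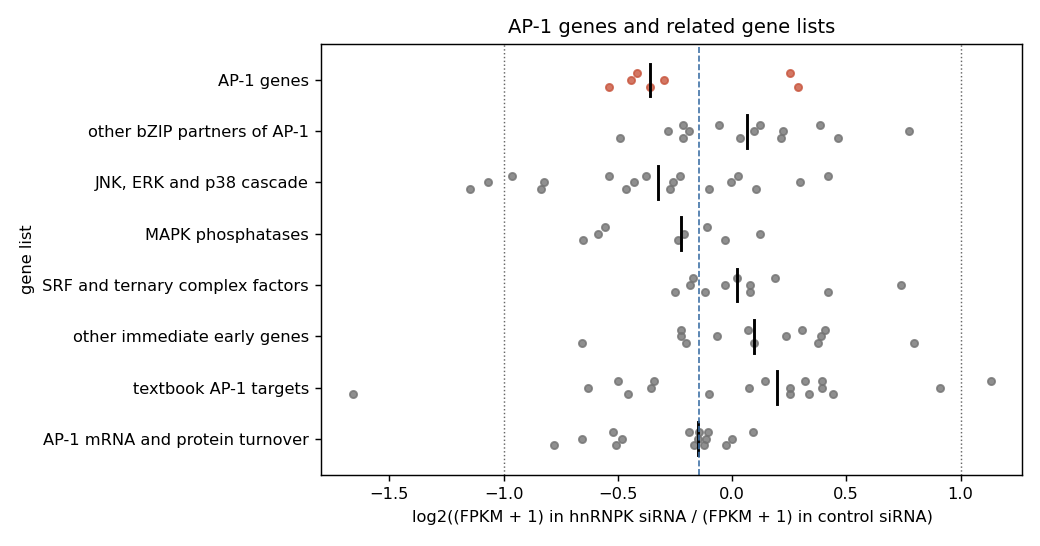
Log2 ratio (FPKM + 1, knockdown over control) of each gene kept, for the AP-1 genes and 7 related lists, with a black bar at each list's median. The dashed line is the median of all genes, −0.15, and the dotted lines are 2-fold. The points past 2-fold are MAP2K2, MAP3K7 and CCND1 on the lower side and IL8 on the higher side.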

How the data were processed

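RNA was measured in 2 libraries of RKO cells, 1 per group. The authors deposited FPKM values in a table with a column for each library. Total RNA was taken with Trizol, per the labels' protocols, and Bowtie 0.12.2 and hg19 are named in the submitters' processing notes. Annotation, counter and strand setting, not given in the sources used here, could each change an FPKM. By name, the control column matches its title by the abbreviation NC. The knockdown column carries only the letters Si and K, a less direct match.

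Ratios of the columns were fractions of whole reads times a constant, at a relative tolerance of 5e-14. Each of the 19069 genes above 0 gave integer reads with an integer length, within 1e-05 bases. The smallest reads that fit were used, which makes intervals the widest that fit. No count model was fitted. Exact Clopper-Pearson 95% intervals cover counting error only. Log2 ratios used FPKM + 1, genes of mean FPKM 1 or more were kept, and those past 2-fold were counted. Computations used Python 3.11.15 with scipy 1.17.1, and read recovery was tested on simulated data.

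The members and lists were chosen with earlier results of these data known. Named genes are all 9 members, HNRNPK and, per list, those past 2-fold or otherwise the highest and lowest ratio on the FPKM + 1 scale. Some genes that this rule names are not reported here. Others are said in the text to be chosen after their values were seen. Alternatives were pseudocounts of 0.1 and 5 FPKM, 3 other scalings, other limits on the mean FPKM (none, or 5), folds of 1.5 and 3, and reads in place of FPKM for shares. Counting by interval was added after the data had been seen.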

Additional observations from a re-analysis of the deposited data

How the results depend on the processing

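All 45 log2 ratios of the 9 AP-1 genes under the 2 other pseudocounts and 3 other scalings kept the direction of the reported value, and 0 AP-1 genes were past 2-fold in any of them. At the deposited scaling, 0 were past 1.5-fold or 3-fold. Those limits were not counted under other scalings, but FOSL1 was past 1.5-fold lower with equal totals, at a log2 ratio of −0.64. The median of the AP-1 genes kept its sign and ran from −0.47 with equal totals to −0.18 with TMM factors. By the counting interval, a rule added after the data had been seen, 5 of the 7 AP-1 genes kept were lower and 2 higher, against 5 and 1 with equal totals, and 4 and 2 under either TMM factors or centring.

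Counts over the whole table, 89 higher and 407 lower, moved to 162 and 754 when 0.1 FPKM was added in place of 1, and to 24 and 85 when 5 FPKM was added. Centring gave 146 and 262, TMM factors 150 and 260, equal totals without small RNAs 68 and 535, and a limit of 5 on the mean FPKM 50 and 258. At 1.5-fold there were 420 and 1682, and at 3-fold 10 and 39. Over the 7 lists, 1 higher and 3 lower genes became 2 and 5 with 0.1 FPKM, 0 and 1 with 5 FPKM, 1 and 4 with equal totals, 2 and 1 under TMM factors and under centring, 5 and 12 at 1.5-fold, and 0 and 1 at 3-fold. With that limit of 5 the count of higher genes was 0. The pair past 2-fold on the higher side after centring was IL8 and MMP10. Each setting was applied to the same 2 libraries, and which scaling is right was not tested.

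By reads in place of FPKM, JUN held 95.7% of its family in the control library and 95.4% in the knockdown library, and FOSL1 84.1% and 82.7%, values that rest on the smallest reads that fit. No paired analysis was possible because each group has 1 library. Depth limited FOS and FOSL2, with 41 to 111 reads per library.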
